A study of Mus musculus with 22 samples.

Results

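The 10 genes described here encode the core factors of mitochondrial fusion and fission: *Mfn1*, *Mfn2*, *Opa1*, *Oma1*, *Yme1l1*, *Dnm1l*, *Fis1*, *Mff*, *Mief1* and *Mief2*. They were chosen by name from the 55487 genes counted, and all 10 passed the filter on low counts in both count tables. They were measured by mRNA sequencing in brown adipose tissue (BAT) of 22 male C57BL/6 mice by label, 1 library per mouse. The untreated cohort held 5 wild-type mice (WT) and 5 mice that lack *Cpeb2* in all tissues (KO), aged 21 to 25 weeks and food-deprived before collection. CPEB2 is an RNA-binding protein that acts on mRNA translation. In the AAV cohort, WT and KO mice received 20000000000 vector genomes of AAV in 30 µl into the interscapular BAT at 16 weeks and were collected 9 weeks later. The virus carried GFP or flag-tagged PRDM16, a transcriptional coregulator of brown fat identity. Each genotype had an AAV-GFP and an AAV-PRDM16 group of 3 mice, and every mouse of this cohort had received a virus. Injection into the fat pad reaches other cells of the depot besides adipocytes, and the KO is not restricted to fat.

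Mitochondria form a network whose shape is set by the balance of fusion and division. MFN1 and MFN2 are GTPases that fuse the outer membranes, and OPA1 fuses the inner membranes and shapes the cristae. The proteases OMA1 and YME1L cut OPA1 into short forms. For division, the cytosolic GTPase DRP1, the product of *Dnm1l*, is brought to the outer membrane by the adaptors MFF, MID49 (*Mief2*), MID51 (*Mief1*) and, less directly, FIS1. In brown adipocytes, adrenergic stimulation is known to be followed by mitochondrial division, and MFN2 also ties mitochondria to lipid droplets and the endoplasmic reticulum.

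The genes lie on 8 chromosomes of the mouse genome (GRCm38). *Opa1* (chr16:29579334-29654884, plus strand) and *Dnm1l* (chr16:16312230-16358959, minus strand) share chromosome 16, but are far apart. *Mfn2* (chr4:147873599-147904704, minus strand) and *Oma1* (chr4:103313812-103371868, plus strand) share chromosome 4. The others are *Mfn1* (chr3:32529465-32579239), *Yme1l1* (chr2:23156369-23199260), *Fis1* (chr5:136953275-136966234), *Mff* (chr1:82724890-82752394), *Mief1* (chr15:80234018-80253371) and *Mief2* (chr11:60728398-60732951), all on the plus strand. Other annotated genes overlap *Mfn2*, *Dnm1l*, *Mff* and *Mief1*, and *Mir5100* lies within *Mief2*. Since the counting of strand is not given in the sources used here, reads of an overlapping gene cannot be told apart from those of the member.

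Promoter windows of RefSeq (GRCm38.p6), from 250 bases before to 50 after each start site, were matched for all 10 genes. They are shown as a description of letters, and a link of the motifs to the members' levels was not tested. Of *Opa1*, *Yme1l1*, *Dnm1l* and *Mfn1*, which varied together across the untreated libraries as described below, *Yme1l1* and *Dnm1l* held none of the 5 motifs searched. Each motif was searched on both strands in 32851 windows of 27025 genes. The NRF1 motif GCGCATGCG was held by 1.95% of genes and by *Opa1* alone among the members, where matches on the 2 strands overlap. The ETS motif CCGGAAGT was held by 4.31% of genes and by *Mfn1*, *Fis1* and *Mief1*, the last 2 of which each held a further match that is not printed. Both motifs contain CpG, a C followed by a G. The members' windows held 8 to 33 CpG each, against a median of 7 over all windows, so these shares are not matched for CpG. The ERR motif TCAAGGTCA (0.466% of genes), the CRE TGACGTCA (2.03%) and the YY1 motif AAGATGGCG (1.64%) were in none of the members' windows. Capitals mark the motif in 4 of these windows, each read 5′ to 3′ on the plus strand.
*Opa1*, NRF1 motif, chr16:29579255-29579303: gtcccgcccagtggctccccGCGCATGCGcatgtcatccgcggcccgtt
*Mfn1*, ETS motif, chr3:32529418-32529465: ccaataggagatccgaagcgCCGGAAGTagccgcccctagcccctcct
*Fis1*, ETS motif, chr5:136953237-136953284: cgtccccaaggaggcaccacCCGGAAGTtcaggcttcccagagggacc
*Mief1*, ETS motif, chr15:80233995-80234042: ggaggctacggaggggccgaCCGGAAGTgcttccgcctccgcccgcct
A match is a description of letters and no match says only that those letters are not in the window.

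Libraries held 55320927 to 162721202 counts. In the AAV cohort *Cpeb2* was at 10.5 to 14.0 CPM (counts per 1000000 counts of the library, TMM-scaled) in the WT libraries and at 4.33 to 5.55 CPM in the KO libraries. In the untreated cohort *Cpeb2* was at 7.70 to 14.3 CPM in WT, while KO mouse 1, at 11.7 CPM, lay within that range and the other KO mice were at 2.11 to 5.78 CPM, so these libraries are called by their labels. *Prdm16* was at 23.9 to 40.2 CPM with AAV-GFP. With AAV-PRDM16 it was at 122, 119 and 45.9 CPM in WT and at 69.2, 128 and 73.6 CPM in KO, in the order of mice 1 to 3. WT + AAV-PRDM16 mouse 3 was thus close to the AAV-GFP range. Although all mice are labelled male, 6 of the 10 untreated libraries held *Xist* at 103 CPM or more with Y-linked transcripts at 1.15 CPM or less, and WT mouse 4 and KO mouse 2 held both. The libraries of untreated WT mice 1 and 2 stood apart from the other 8 untreated libraries and resembled those of the AAV cohort. Their long transcripts, the upper 25% by length, exceeded the short ones, the lower 25%, by a median log2 CPM of 3.70 and 3.86, against 1.85 to 2.83 in the other 8 and 3.47 to 3.70 in the AAV libraries. GC-rich genes minus GC-poor genes gave -0.55 and -0.53 in WT mice 1 and 2, -0.07 to 2.02 in the other 8 and -0.64 to -0.27 in the AAV libraries. WT mice 1 and 2 were also the only untreated libraries with Y-linked transcripts and *Xist* below 0.1 CPM, so that the 6 libraries with *Xist* and hardly any Y-linked transcripts were 2 of 5 WT and 4 of 5 KO. Sums over markers, *Xist* and Y-linked transcripts are given throughout in CPM by library total, without TMM scaling. Over 3 markers of all adipocytes the sum in WT mice 1 and 2 was 5326 and 4921 CPM. It was 7466 to 9378 in the other 8 and 4291 to 5478 in the AAV libraries. KO mouse 2, at 8478 CPM, had a TMM factor of 1.47, and scaling by it would bring its sum nearer to those of WT mice 1 and 2. The part of these measures in the members' values was not tested, beyond the fits without WT mice 1 and 2 and with Y-linked transcripts as a covariate. Brown adipocyte markers were present throughout, with *Ucp1*, the uncoupling protein of brown fat, at 1184 CPM or more in every library.

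**Figure D1:**
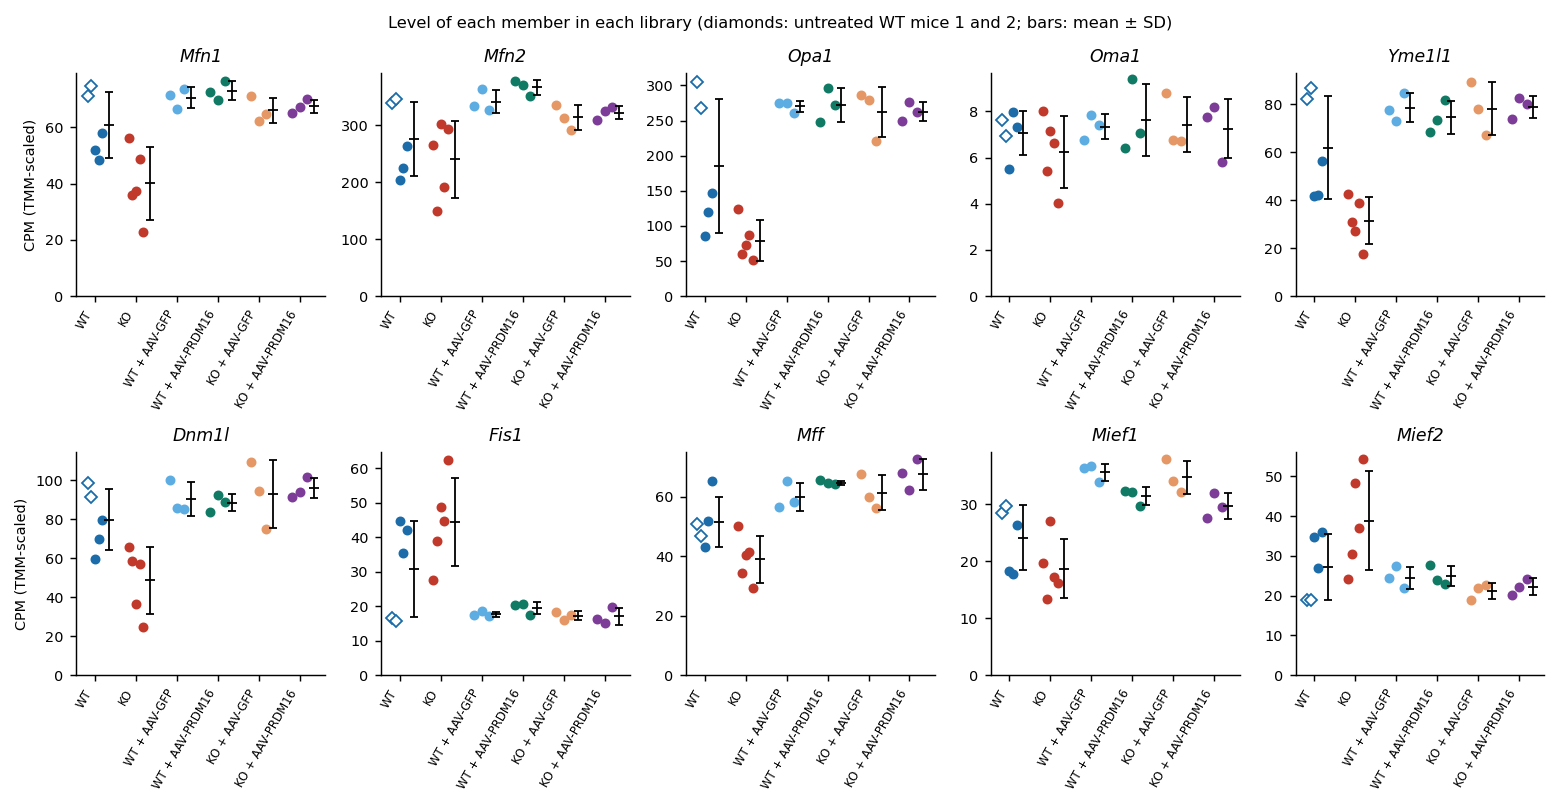
Level of each gene in each library, in TMM-scaled CPM (vertical axes from 0), by group. Points are single mice, open diamonds are untreated WT mice 1 and 2, and black bars are the mean ± SD; Opa1 is at 269 and 305 CPM in the diamonds and at 51.5 to 147 CPM in the other untreated libraries.

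The first question was how much of each factor's mRNA BAT holds. Levels of different genes are compared per kilobase of exon, using all annotated exons of the gene. In the AAV cohort, where the spread was small, *Mfn2* was the highest in every group, at 60.5 to 70.6 CPM per kb, followed by *Opa1* at 33.3 to 34.6 and *Dnm1l* at 17.0 to 18.4 CPM per kb. The ranges of these 3 genes did not overlap in any of the 4 AAV groups. *Mfn1*, *Fis1*, *Yme1l1* and *Mief2* followed at 7.77 to 11.9 CPM per kb, and most neighbours among them overlapped. *Mff* was at 6.16 to 6.93, *Mief1* at 3.66 to 4.40 and *Oma1* at 3.38 to 3.55 CPM per kb, and *Mief1* and *Oma1* were apart only in WT + AAV-GFP. Thus the level of *Mfn2* was 17.5 to 19.9 times that of *Oma1*, the lowest. The order within the middle depends on length: with the longest transcript as the length, *Mff*, whose exons add up to 9757 bases but whose longest transcript has 3918, reached 15.3 to 17.3 CPM per kb.

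In the untreated cohort the spread was wide and all 9 pairs of neighbours in KO, and 7 of 9 in WT, overlapped. *Mfn2* was again the highest, at 53.1 CPM per kb in WT and 46.3 in KO. *Fis1*, the fifth in every AAV group, was the third in WT (18 CPM per kb) and the second in KO (25.9), and *Mief2* was the third in KO (14.3), above *Opa1* (10.0). The tables of the cohorts were scaled apart, and virus and cohort cannot be told apart. *Xist* at 103 CPM or more without Y-linked transcripts occurred in 6 of 10 untreated and 0 of 12 AAV libraries, all of which held Y-linked transcripts at 148 CPM or more. No test was made across cohorts.

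**Figure D2:**
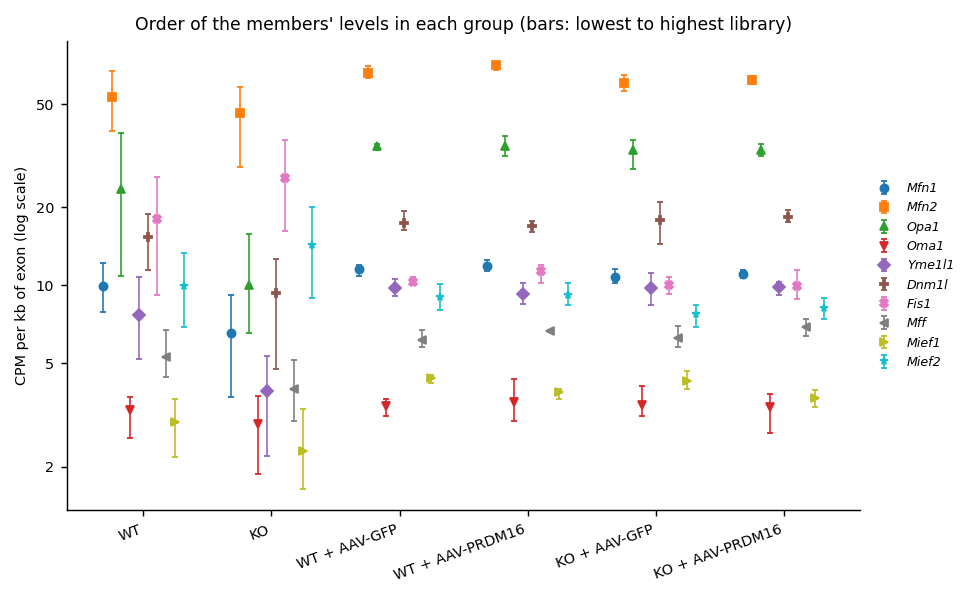
Mean level of each gene in the 6 groups, in CPM per kb of exon on a log axis. Bars run from the lowest to the highest library; Mfn2 is on top in all groups, and the bars are longest in the untreated WT and KO groups.

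The question of the untreated cohort was what loss of CPEB2 does to BAT mRNA. None of the 10 genes was different between untreated KO and WT at an adjusted p of 0.05 (edgeR's quasi-likelihood test, Benjamini-Hochberg adjusted over 17869 genes), where 0% of all genes were called, and the smallest adjusted p of a member was 0.305. DESeq2 called none of the 10 either. At an unadjusted p of 0.05, 4 of the 10 were called (*Opa1*, *Yme1l1*, *Dnm1l* and *Mfn1*), against 15.9% of all genes. All 4 were lower in KO, against 10.9% of all genes lower and 4.99% higher at that threshold. By the study's rule of at least 2-fold with an FDR of at most 0.5, *Opa1* alone was called, against 10.8% of all genes. No member had groups that did not overlap, which 1.4% of all genes did. The median log2 fold change (log2FC, KO minus WT) of the 10 was -0.39, against 0.04 over all genes tested.

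*Opa1*, the inner membrane fusion GTPase, had the largest difference. It was at 305, 269, 85.8, 120.3 and 147 CPM in WT mice 1 to 5 and at 124, 59.7, 72.3, 87.3 and 51.5 CPM in KO mice 1 to 5. WT mice 1 and 2 were far above the rest, while WT mouse 3 lay below KO mice 1 and 4, so the groups overlapped. The means were 185 ± 95.9 (SD, n = 5) in WT and 79.0 ± 28.7 CPM (SD, n = 5) in KO, a log2FC of -1.23 ± 0.38 (SE; 95% interval -2.05 to -0.41; edgeR adjusted p = 0.305). Without WT mice 1 and 2 the log2FC was -0.52 ± 0.31 (SE; edgeR adjusted p = 0.867). When the dependence of counts on GC content and exon length was taken out of every library it was -0.66 ± 0.27 (SE; edgeR adjusted p = 0.692).

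*Yme1l1*, a protease that cuts OPA1, followed the same libraries. It was at 82.0, 86.6, 41.8, 42.2 and 56.3 CPM in WT and at 42.7, 31.0, 27.1, 38.8 and 17.7 CPM in KO. Except for KO mouse 1, which lay just above WT mice 3 and 4, every KO mouse was below every WT mouse. Its log2FC was -0.97 ± 0.30 (SE; edgeR adjusted p = 0.305) with all libraries and -0.52 ± 0.28 (SE; edgeR adjusted p = 0.867) without WT mice 1 and 2. *Oma1*, the stress-activated protease of OPA1, was at 5.51 to 7.99 CPM in WT and 4.03 to 8.03 CPM in KO, with a log2FC of -0.18 ± 0.24 (SE).

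Of the mitofusins, *Mfn1* was at 71.2, 74.6, 52.0, 48.5 and 57.8 CPM in WT and at 56.3, 35.8, 37.2, 48.8 and 22.7 CPM in KO. WT mice 1 and 2 were again the highest, and KO mice 1 and 4 reached the other WT mice. The log2FC was -0.60 ± 0.26 (SE; edgeR adjusted p = 0.309), and -0.35 ± 0.28 (SE) without WT mice 1 and 2. *Mfn2* did not follow *Mfn1*: it was at 339.8, 347, 204.2, 225 and 264.5 CPM in WT, and in KO it ran from 149 CPM in mouse 2 to 265.5 in mouse 1, 293.5 in mouse 5 and 303 in mouse 3, with mouse 4 between mice 2 and 1. The log2FC was -0.20 ± 0.27 (SE), which turned to 0.12 ± 0.30 (SE) without WT mice 1 and 2. KO mice 3 and 5 had low *Mfn1* and high *Mfn2*, so that their ratio of *Mfn2* to *Mfn1* per kb was 9.60 and 15.3, against 4.61 to 5.62 in the other 8 untreated libraries and 5.24 to 6.46 in the AAV cohort. The same pair of libraries had the largest sums over 15 nuclear-coded subunits of oxidative phosphorylation, 24400 and 28170 CPM against 13830 to 17950 in the other 8, and the largest GC-rich minus GC-poor differences, 1.21 and 2.02. The part of these measures in the ratio was not tested.

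Among the fission factors, *Dnm1l* was at 98.3, 91.1, 59.7, 69.8 and 79.7 CPM in WT and at 65.7, 58.6, 36.7, 57.03 and 24.8 CPM in KO. KO mouse 1 was the only KO mouse within the WT range. The log2FC was -0.72 ± 0.28 (SE; edgeR adjusted p = 0.305), and -0.47 ± 0.31 (SE; edgeR adjusted p = 0.867) without WT mice 1 and 2. The adaptors differed in sign. *Mff* had a log2FC of -0.40 ± 0.21 (SE) and *Mief1* of -0.37 ± 0.25 (SE), while *Fis1* and *Mief2* were higher in the KO mean.

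*Fis1* was at 16.4, 15.7, 44.7, 35.4 and 42.0 CPM in WT and at 27.7, 38.9, 48.8, 44.7 and 62.2 CPM in KO, with a log2FC of 0.53 ± 0.34 (SE; edgeR adjusted p = 0.404). *Mief2* was at 18.8, 19.0, 34.8, 27.0 and 36.1 CPM in WT and at 24.2, 30.5, 48.3, 37.0 and 54.3 CPM in KO, with a log2FC of 0.52 ± 0.29 (SE; edgeR adjusted p = 0.355). For both genes WT mice 1 and 2 were the lowest of the 10 libraries, where they had been the highest for *Opa1*, *Yme1l1*, *Dnm1l* and *Mfn1*. Without them the log2FC of *Fis1* was 0.19 ± 0.30 (SE) and that of *Mief2* 0.32 ± 0.31 (SE). With the GC and length trend removed, that of *Mief2* was -0.05 ± 0.20 (SE) and that of *Mff* turned to 0.33 ± 0.26 (SE).

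**Figure D3:**
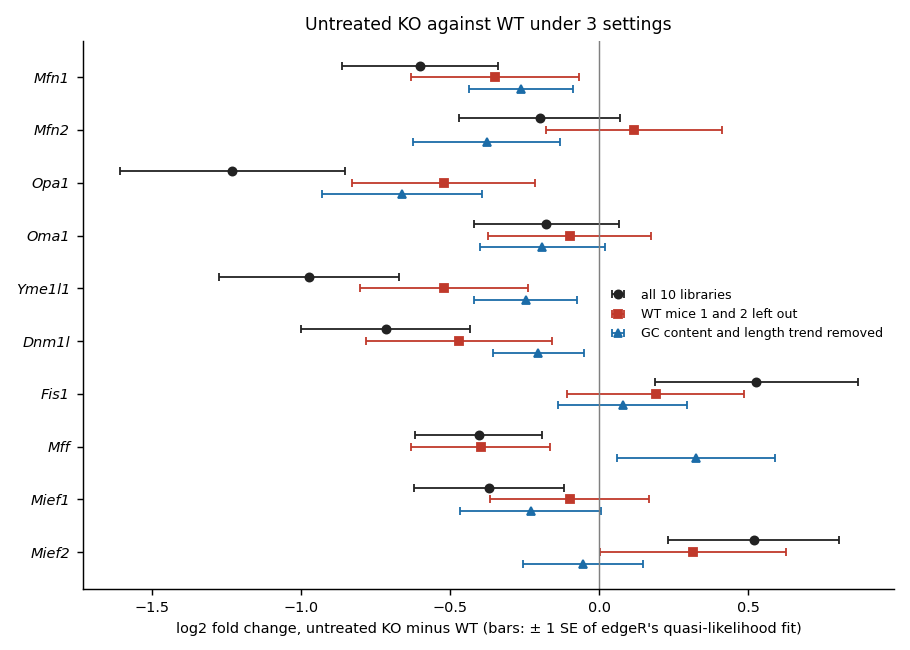
Log2 fold change of each gene, untreated KO minus WT (horizontal axis), with ± 1 SE, under 3 settings. With all 10 libraries Opa1 is at -1.23; most genes lie closer to 0 with WT mice 1 and 2 left out or with the GC and length trend removed.

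Leaving out WT mice 1 and 2, 0 of the 10 genes had an unadjusted p under 0.05, against 2.32% of all genes. In a fit with a term for whether a library held Y-linked transcripts, the log2FC of *Opa1* was -0.96 ± 0.45 (SE). *Yme1l1*, at -0.83 ± 0.34 (SE), was the only one of the 10 at an unadjusted p under 0.05, against 6.95% of all genes. The 4 genes lower in KO at the unadjusted threshold had exons of 5203 to 8009 bases with a GC content of 38.1% to 45.9%. *Fis1* and *Mief2*, higher in the KO mean, had exons of 1714 and 2716 bases with a GC content of 54.4% and 57.6%. *Mff*, with the longest exons (9757 bases) and the lowest GC content (37.3%) of the 10, and *Mief1*, with exons of 8106 bases, were not called. By longest transcript, from which the GC content was taken, *Mff* had 3918 bases and *Mief1* 5148. The longest transcripts of the 4 genes lower in KO had 3966 to 6230 bases. The part of length and GC content in the members' differences was not tested beyond the fit with both trends removed. As a measure within a library, the ratio of *Opa1* to *Fis1* per kb was 4.03 and 3.72 in WT mice 1 and 2, 0.418 to 0.764 in WT mice 3 to 5, 0.180 to 0.977 in KO and 2.64 to 3.96 in the 12 AAV libraries. KO and the remaining WT mice overlapped in this ratio, and the AAV groups overlapped one another.

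**Figure D4:**
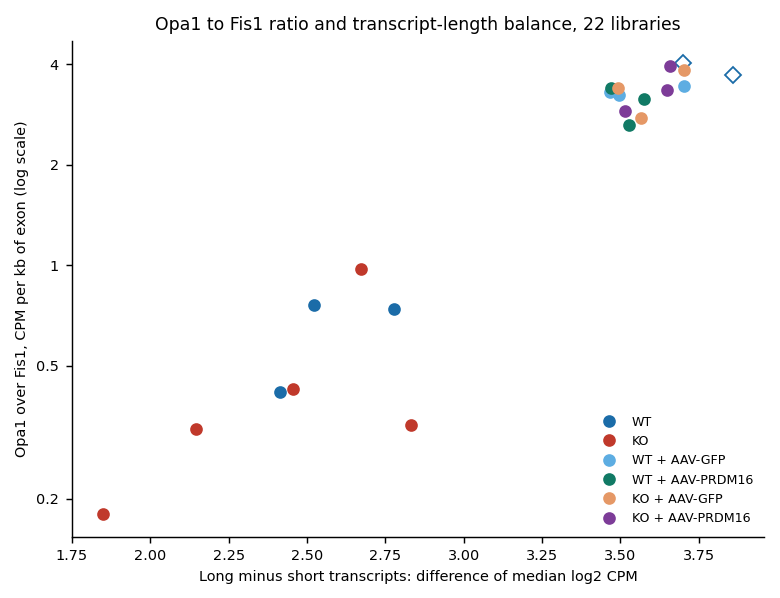
Ratio of Opa1 to Fis1 per kb of exon (log axis) against the median log2 CPM of long minus short transcripts, for 22 libraries coloured by group. Open diamonds are untreated WT mice 1 and 2, which lie with the 12 AAV libraries at ratios of 2.64 to 4.03; the other 8 untreated libraries lie at 0.180 to 0.977.

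Other cell types also varied in the untreated cohort. Summed over 10 skeletal muscle markers, libraries were at 15.7 to 3012 CPM in WT and 7.25 to 9637 CPM in KO, with all 10 markers higher in the KO mean and 0 at an adjusted p of 0.05. The 6 macrophage markers were at 24.5 to 147 CPM in WT and 38.2 to 208 CPM in KO, and 4 endothelial markers at 279 to 505 and 267 to 1114 CPM. The 9 brown adipocyte markers were at 4126 to 7289 CPM in WT and 5077 to 12280 CPM in KO. The part of cell makeup in the members' values was not tested, and in bulk tissue fewer cells of a type and less RNA per cell cannot be told apart.

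The AAV cohort asked whether extra PRDM16 alters gene expression in WT and KO BAT. The members were steady here. Over 8 contrasts and 10 genes, log2FC ran from -0.26 to 0.17, and 0 of the 80 values passed an adjusted p of 0.05 by edgeR or DESeq2. At an unadjusted p under 0.05 edgeR gave 5 of the 80, against 3.19% to 18.3% of all genes, depending on the contrast. The contrasts share groups, so the 80 values are not independent. By edgeR, all genes called at the adjusted threshold made up 0.0529% in KO vs WT under AAV-GFP, 0.0476% under AAV-PRDM16, 0% for PRDM16 vs GFP in WT and 0% in KO, 2.18% for genotype over both viruses, 0.037% for virus over both genotypes, 0% for their interaction and 0.00529% for KO + AAV-PRDM16 vs WT + AAV-GFP. By DESeq2 the shares were, in the same order, 1.27%, 3.31%, 0.778%, 1.39%, 8.38%, 3.19%, 0.00529% and 0.831%. In the 7 contrasts other than the interaction, the 95% intervals of all 70 values lay within a fall of 28.3% and a rise of 36.5%, so a 2-fold difference lay outside each of them. A p above the threshold does not show that the groups were equal. The contrasts of virus in WT include WT + AAV-PRDM16 mouse 3, with *Prdm16* at only 45.9 CPM.

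KO against WT, under AAV-GFP and under AAV-PRDM16, gave no member at an unadjusted p under 0.05, against 9.18% and 13.7% of all genes. *Opa1* was at 274.5, 276 and 261.5 CPM in WT + AAV-GFP and at 287, 279 and 221 CPM in KO + AAV-GFP, so KO mice lay on both sides of the WT mice. Its log2FC was -0.04 ± 0.11 (SE; 95% interval -0.29 to 0.20), where the untreated cohort had given -1.23. *Yme1l1* had a log2FC of -0.01 ± 0.12 (SE) and *Dnm1l* of 0.04 ± 0.13 (SE) under AAV-GFP.

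*Mfn2* was at 335, 364 and 327 CPM in WT + AAV-GFP and 336, 314 and 293 in KO + AAV-GFP. With AAV-PRDM16 it was at 377, 371.5 and 352 CPM in WT and 310.3, 325 and 333 in KO, and these groups did not overlap, as in 22.8% of all genes. Under AAV-GFP no member had groups apart, against 13.4% of all genes. Over both viruses the log2FC of *Mfn2* between KO and WT was -0.15 ± 0.06 (SE; edgeR unadjusted p = 0.0335, adjusted p = 0.223). *Mief2* had -0.19 ± 0.09 (SE; edgeR unadjusted p = 0.049, adjusted p = 0.27), with 18.8 to 24.3 CPM in the 6 KO libraries and 21.8 to 27.7 in the 6 WT libraries. These 2 of 10 members at an unadjusted p under 0.05 stand against 18.3% of all genes.

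*Mief1*, the DRP1 adaptor MID51, was lower with AAV-PRDM16 in both genotypes. It was at 36.4, 36.6 and 33.9 CPM in WT + AAV-GFP and at 32.35, 32.2 and 29.6 CPM in WT + AAV-PRDM16. In KO it was at 37.9, 34.01 and 32.2 CPM with AAV-GFP and at 27.5, 32.0 and 29.6 CPM with AAV-PRDM16. Within each genotype the virus groups did not overlap, as in 14.2% of all genes in WT and 9.43% in KO. The log2FC was -0.18 ± 0.09 (SE) in WT and -0.22 ± 0.09 (SE) in KO, where it was the only member at an unadjusted p under 0.05; in WT there was 0 such member, and 7.29% of all genes in WT and 6.41% in KO reached that threshold. Over both genotypes the log2FC was -0.20 ± 0.07 (SE; edgeR unadjusted p = 0.00979, adjusted p = 0.248), 1 of 10 members against 9.09% of all genes. Its interaction with genotype was -0.04 ± 0.13 (SE). For KO + AAV-PRDM16 against WT + AAV-GFP, *Mief1* had a log2FC of -0.26 ± 0.09 (SE; edgeR unadjusted p = 0.0158, adjusted p = 0.533) and was the single member called unadjusted, against 7.93% of all genes. These contrasts share groups with one another. Immune markers moved with the virus too: all 6 macrophage and all 7 lymphocyte markers had a negative log2FC over both genotypes, 0 of them at an adjusted p of 0.05 by edgeR, 6 and 4 at an unadjusted p under 0.05. The macrophage markers summed to 31.8 to 55.7 CPM in WT + AAV-GFP and 21.9 to 27.0 in WT + AAV-PRDM16, and to 63.2 to 216 and 43.2 to 52.4 CPM in the KO groups. Their part in the level of *Mief1* was not tested.

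The other adaptors and DRP1 differed less. With AAV-PRDM16 over both genotypes, *Mff* had a log2FC of 0.12 ± 0.07 (SE), *Fis1* of 0.06 ± 0.08 (SE) and *Dnm1l* of 0.01 ± 0.09 (SE). *Opa1* had 0.00 ± 0.08 (SE; 95% interval -0.17 to 0.18). No member had an interaction of genotype and virus at an unadjusted p under 0.05, against 3.19% of all genes.

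**Figure D5:**
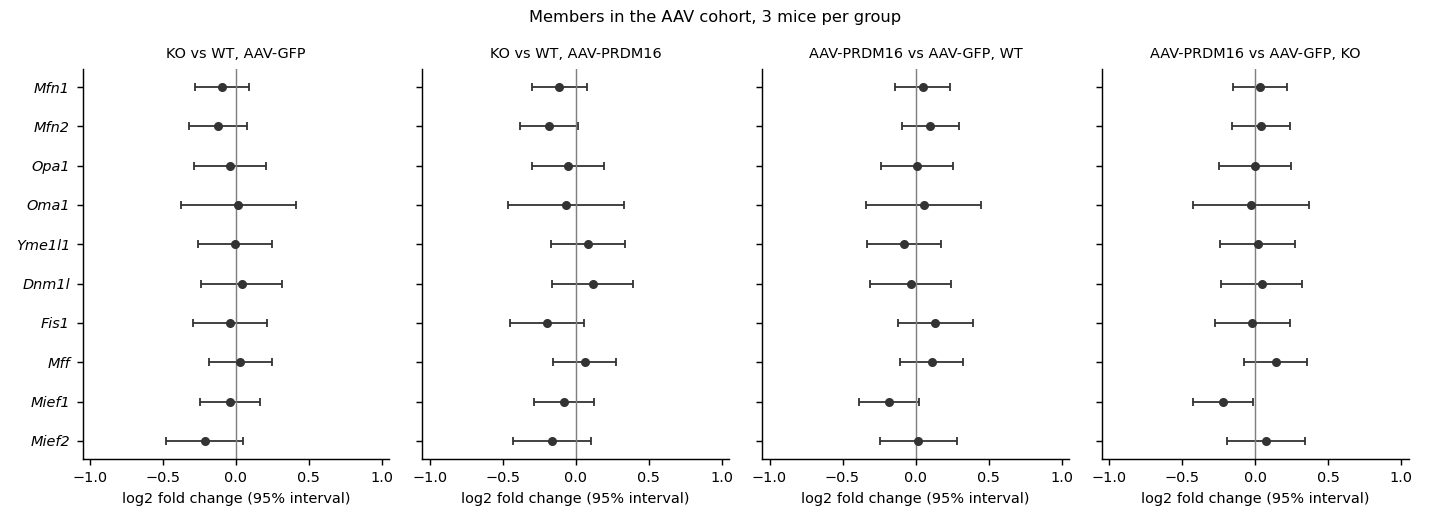
Log2 fold change of each gene with its 95% interval (horizontal axes) in 4 contrasts of the AAV cohort, 3 mice per group. All intervals stay within a 2-fold change, and the points run from -0.22 to 0.14.

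Around these 10 genes, 7 lists of 51 other genes of mitochondrial dynamics were read. In the AAV cohort, over both viruses, 41 of the 50 tested had a negative log2FC between KO and WT (48.4% of all genes tested were negative), 4 passed an adjusted p of 0.05 (2.18% of all genes did), and the median of the 50 was -0.12 against 0.01 over all genes. The 4 genes that fell were *Phb* and *Phb2*, the prohibitins that scaffold the inner membrane and hold the OPA1-cutting proteases, *Micos13*, a subunit of the cristae junction complex, and *Pink1*, the kinase that marks damaged mitochondria for mitophagy. *Phb2* was at 122 to 136 CPM in WT + AAV-GFP and 137.5 to 152 in WT + AAV-PRDM16, and at 102 to 113 and 103 to 118 CPM in the KO groups, a log2FC of -0.34 ± 0.06 (SE; edgeR adjusted p = 0.0253). *Micos13* had a log2FC of -0.44 ± 0.08 (SE; edgeR adjusted p = 0.0207), *Pink1* of -0.35 ± 0.07 (SE; edgeR adjusted p = 0.0265) and *Phb* of -0.29 ± 0.06 (SE; edgeR adjusted p = 0.0342). For *Phb2* the highest KO library, at 118 CPM, was just under the lowest WT library, at 122 CPM. *Phb2* was named for its p in this same contrast, so the gap adds no support. The share of all genes with such a gap is not given here. The 4 calls shrank to 1, *Phb2*, with the GC and length trend removed, where 1.185% of all genes were called. They shrank to 0 when WT + AAV-GFP mouse 2 or 3, WT + AAV-PRDM16 mouse 1 or 3, KO + AAV-GFP mouse 2 or KO + AAV-PRDM16 mouse 1 was left out. The share of all genes called also fell in these fits, from 2.18% to between 0.455% and 0.618%. The calls shrank to 1 without KO + AAV-PRDM16 mouse 3 (0.803% of all genes) and to 2 without WT + AAV-PRDM16 mouse 2 (1.07%).

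By list, the 8 genes of Opa1 processing and inner membrane scaffolds had a median log2FC of -0.13 over both viruses (8 of 8 negative), the 8 of the cristae junction complex -0.18 (8 of 8 negative), the 8 regulators of outer membrane fusion -0.11, the 10 fission regulators tested -0.06, the 4 of mitochondrial transport -0.09, the 6 of mitophagy -0.11 and the 6 biogenesis regulators -0.12. Beside them, all 15 nuclear-coded subunits of oxidative phosphorylation were negative, with a median of -0.21 and 3 at an adjusted p of 0.05. Macrophage markers went the other way, 6 of 6 higher in KO with 3 at an adjusted p of 0.05, and 8 of 9 brown adipocyte markers were lower, 3 of them at that threshold. The part of cell makeup in these differences was not tested. Muscle markers, at 0.374 to 1.70 CPM in most AAV libraries, reached 24.4 CPM in a WT + AAV-PRDM16 and 81.9 CPM in a KO + AAV-GFP library.

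In the untreated cohort the same 51 genes gave 25 positive and 26 negative values, a median of -0.01 and 0 at an adjusted p of 0.05 by edgeR. At an unadjusted p under 0.05, 8 of 51 were lower and 2 of 51 higher in KO, where 10.9% of all genes were lower and 4.99% higher. Lower were *Tfam*, the packaging and transcription factor of mitochondrial DNA (log2FC -0.94 ± 0.27, SE), *Rhot1*, the mitochondrial transport GTPase Miro1 (-0.82 ± 0.28, SE), *Slc25a46*, an outer membrane factor of fusion (-0.87 ± 0.33, SE), and *Tbc1d15*, a FIS1 partner (-1.09 ± 0.37, SE), among others. Higher were *Chchd6* of the cristae junction complex (0.76 ± 0.32, SE) and *Fkbp8*, a mitophagy receptor (0.72 ± 0.29, SE). Their list medians ran from -0.46 for biogenesis regulators and -0.42 for transport to 0.15 for fission regulators and 0.26 for Opa1 processing and inner membrane scaffolds. *Phb*, *Phb2*, *Micos13* and *Pink1*, which fell in the KO libraries of the AAV cohort, had positive values in untreated KO, at log2FC of 0.47 ± 0.30, 0.40 ± 0.33, 0.63 ± 0.44 and 0.48 ± 0.27 (SE), with adjusted p of 0.366 or more by edgeR. The difference between the cohorts was not tested.

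Across the 22 libraries, with each group centred on its mean, *Yme1l1* had the closest likeness to *Mfn1* (Pearson r = 0.93), *Opa1* (0.89) and *Dnm1l* (0.88), and *Fis1* to *Mief2* (0.89). *Opa1* and *Fis1* were opposed (-0.87). In the 12 AAV libraries alone, r was 0.72, 0.66 and 0.68 for the first 3 pairs, 0.38 for *Fis1* and *Mief2* and -0.05 for *Opa1* and *Fis1*. In the untreated libraries *Mfn1* gave 0.81 with *Opa1* and 0.88 with *Dnm1l*, and *Opa1* gave 0.71 with *Dnm1l*. The same pairs gave 0.08, 0.42 and 0.81 in the AAV libraries. *Mfn2* was most like *Mief1* among the members (0.81, and 0.81 in both cohorts), while *Mfn2* and *Mfn1* gave 0.12. These values describe libraries that share differences in length and GC balance, and carry no test. Among 12806 other genes, the pattern most like each member was that of *Sec63* for *Mfn1* (0.98), *Bcl2l13* for *Mfn2* (0.95), *Arfgef2* for *Opa1* (0.98), *Snx7* for *Oma1* (0.85), *Pcmtd1* for *Yme1l1* (0.98), *Wbp4* for *Dnm1l* (0.96), *Rps16* for *Fis1* (0.97), *Rragc* for *Mff* (0.92), *Ankrd46* for *Mief1* (0.92) and *Mif4gd* for *Mief2* (0.95). In the 12 AAV libraries alone these pairs gave 0.54 for *Mfn2*, 0.58 for *Opa1*, 0.59 for *Mief1* and 0.72 to 0.87 for the other 7. In the untreated cohort, r with the length balance of the library was 0.81 for *Opa1*, 0.84 for *Yme1l1*, 0.75 for *Dnm1l*, 0.67 for *Mfn1*, 0.36 for *Oma1*, 0.30 for *Mief1*, 0.19 for *Mfn2*, 0.08 for *Mff*, -0.91 for *Mief2* and -0.96 for *Fis1*.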

How the data were processed

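The authors deposited raw counts per gene, without normalization, for 55487 Ensembl identifiers, in 1 table per cohort. The submitters' processing notes name bcl2fastq 2.20, Trimmomatic 0.36, HISAT2 and GRCm38.p6; the counting tool, strand and molecular identifiers are not given in the sources used here. Symbols, exon lengths and GC content came from GENCODE M21. Groups followed the sample labels. Genes were filtered with filterByExpr, scaled by TMM and compared with edgeR 4.0.16 in R 4.3.3 (quasi-likelihood, two-sided, Benjamini-Hochberg), with 10 libraries in the untreated fit and all 12 in the AAV fit. CPM are TMM-scaled. No pair of libraries was near enough to be a library deposited again. The code was tested on simulated data. Alternatives were DESeq2 1.42.0, limma-voom 3.58.1 with quality weights, RLE scaling, 2 other filters, each library left out, a replicate block, GC and length trends removed by splines (4 degrees of freedom), untreated WT mice 1 and 2 left out, Y-linked transcripts as a covariate, and only the 2 groups compared. The members and lists were chosen with earlier results of these data known. Named were all members, *Cpeb2*, *Prdm16* and *Ucp1*, up to 3 genes per dynamics list with the smallest p, and the gene most like each member. The p-values set a group difference against the spread between these mice and take the mice as independent. The labels do not say whether litters or days were shared, so that independence is not known. No columns of the authors' own comparisons were used. The AAV titles' mouse numbers 64 and 65 each occur in 2 groups.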

Additional observations from a re-analysis of the deposited data

Results flagged for a closer look

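The ratio of *Mfn2* to *Mfn1* per kb in untreated WT mouse 3, 4.62, lay below the other 4 WT mice, the nearest of which was at 5.39, by 0.77 of the group's whole range, beyond Dixon's 95% limit of 0.710 for 5 libraries. It was the only one of 32 sets of values so tested, over the members, the check genes and the ratios in the untreated WT and KO groups, to pass that limit, where chance passes about 1 in 20. KO mouse 4, at 4.61, and KO mouse 2, at 4.90, had ratios near it. No member passed a test of the genotype and virus interaction.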

How the results depend on the processing

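No alternative brought a member to an adjusted p under 0.05 in any comparison. The smallest was 0.099 (limma-voom, genotype over both viruses), and 0.143 in the untreated cohort (*Opa1* and *Yme1l1*, DESeq2). In the untreated cohort the log2FC of *Opa1* stayed negative, from -1.45 without KO mouse 1 to -0.22 with WT mice 1 and 2 left out and the trends removed, a setting added after the data were seen. The median of the 10 was -0.12 there, against -0.39. The direction reversed for *Mfn2* without WT mice 1 and 2 (0.12), for *Mff* (0.33) and *Mief2* (-0.053) with GC content and length trends removed, and in the added setting for *Fis1* (-0.12), *Mff* (0.10) and *Mief2* (-0.17). The members at an unadjusted p under 0.05 in the untreated cohort numbered 4, against 15.9% of all genes. They numbered 0 without WT mice 1 and 2 (2.32% of all genes), 1 with the trends removed (6.51%) and 1 with Y-linked transcripts as a covariate (6.95%). With any 1 library left out they numbered 2 to 6, against 6.67% to 22.2% of all genes. Both were highest without KO mouse 1. By the study's rule of fold and FDR, 1 of the 10 members was called, against 10.8% of all genes. Under the alternatives 0 to 2 were called, and the share of all genes was not counted there. The cause was not tested. In the AAV cohort the median of the members between KO and WT under AAV-GFP ran from -0.11 to 0.0345 with 1 library left out, against -0.04, and that for PRDM16 against GFP in KO from -0.051, without KO + AAV-GFP mouse 3, to 0.092, without KO + AAV-GFP mouse 1, against 0.02. Of 80 member comparisons in the AAV cohort, 47 had another sign under at least 1 alternative, the largest of them at 0.17. The 4 calls among the other dynamics genes were 7 with DESeq2, 8 with limma-voom, 1 with the trends removed and 0 with the block and the trends removed together. Over all genes, genotype over both viruses gave 412 calls (2.18%) by edgeR, 1584 (8.38%) by DESeq2 and 1269 (6.715%) by limma-voom. It gave 224 (1.185%) with the trends removed and 217 (1.148%) with the block and the trends removed together.

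No pairing by replicate number was seen: correlations of same-numbered libraries ran from -0.29 to 0.11 in the untreated cohort, 1 of 5 above 0.1, and from -0.09 to 0.15 in the AAV cohort, 2 of 18. Such values cannot show whether mice shared litters or days. With the replicate block the untreated cohort had 6 members at an unadjusted p under 0.05, against 18.9% of all genes. The median was -0.40, and the smallest adjusted p was 0.2. With the block and the trends removed together the log2FC of *Mff* was 0.35 and that of *Mief2* -0.032. The block brought no member of the AAV cohort past an adjusted p of 0.05. Depth does not limit the members, but *Oma1*, at 4.03 to 9.38 CPM, had the fewest counts.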
